A study of Mus musculus with 10 samples.

Results

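M3 and M4 are 2 mouse mammary tumour cell lines of mesenchymal type, and the comparison described here sets the 2 arrays of M3 against the 2 arrays of M4, which are 4 of the 10 arrays of the study, across all genes measured. The study also profiled an epithelial line, E, derived from an adenocarcinoma that arose spontaneously in the mammary gland of a female FVB/N-TgN(MMTVneu)202Mul mouse, in which the neu oncogene is driven by the mouse mammary tumour virus promoter, and a pair of further mesenchymal lines, M1 and M2, with 2 arrays each. All 4 mesenchymal lines came from tumours that relapsed in female FVB/N mice after E cells had been injected, so M3 and M4 share the E cells as their origin and the strain of the host. The labels name no drug or other treatment of M3 or M4: cells were grown in RPMI with 10% fetal bovine serum to 80% confluence, and total RNA was labelled with biotin and hybridized to Affymetrix mouse arrays. M3 and M4 are each a single line. Whether both arrays of M3, or of M4, stem from separate dishes was a point not given in the sources used here, so the p-values measure only the spread between arrays, which may be technical.

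Carcinoma cells can pass from an epithelial to a mesenchymal state, in which they lose cell junctions and make collagens, proteases and secreted signals that are otherwise typical of fibroblasts. The Snail, Twist, Zeb and Prrx transcription factors are known to drive or accompany that passage. Lines that share this state can still differ in how fast they divide, in how they build lipids, in how they respond to a short supply of amino acids, and in which matrix proteins they secrete, and those are the gene groups set out here for M3 and M4.

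The labels of both lines were compared with marker genes first. Epcam, a surface protein of epithelial cells, read 2.39 and 4.77 on the M3 arrays and 3.12 and 1.91 on the M4 arrays, against a mean of 9498 in E. Krt18, an epithelial keratin, stayed under 8 on all 4 arrays, whereas Krt8, its usual partner, was high in both lines, with 6244 and 6213 in M3 and 5589 and 5323 in M4. The mesenchymal intermediate filament gene Vim read 8083 and 7938 in M3 and 13561 and 13483 in M4, and S100a4, a calcium-binding protein of fibroblasts, read 10580 and 10626 in M3 and 12738 and 12498 in M4. Both lines thus carried mesenchymal markers and had Epcam at the bottom of the signal range, with Krt8 as an epithelial keratin that had stayed high.

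Values are array signals after quantile normalization, and changes are differences of log2(signal + 32), M3 minus M4, so a positive change means higher in M3; adding 32 understates the change of genes with low signals. A gene was called when limma's moderated test gave a Benjamini-Hochberg adjusted p under 0.05 and the change was at least 2-fold. Within M3 the 2 arrays correlated at r = 0.9933 across genes and 37 genes lay 2-fold apart, and within M4 the correlation was 0.9932 with 42 genes 2-fold apart. Any array of M3 set against any array of M4 gave a correlation between 0.9371 and 0.9384 and between 1614 and 1704 genes 2-fold apart. The trimmed mean signal as deposited was 200.1 and 198.3 for M3 and 180.7 and 190.2 for M4. The ratio of 3' to 5' probe sets of Actb, a measure of RNA integrity, was 1.29 and 1.38 in M3 and 1.25 and 1.22 in M4, and its part in the results was not tested.

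Between M3 and M4, 1567 of 14840 genes tested (10.6%) were called, of which 765 (5.15%) were higher and 802 (5.4%) lower in M3, and the median change over all genes tested was 0.00. The arrays of the lines did not overlap for 10505 genes, or 70.8%, so a lack of overlap alone is common here. Of the 6 pairs of mesenchymal lines, M3 and M4 had the lowest correlation of their line means across genes, 0.9409, where the other pairs lay between 0.9466 and 0.9702. Their median absolute difference of 0.31 on the log2 scale stood above the 0.23 to 0.30 of the other pairs. No test was made of that order.

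**Figure D1:**
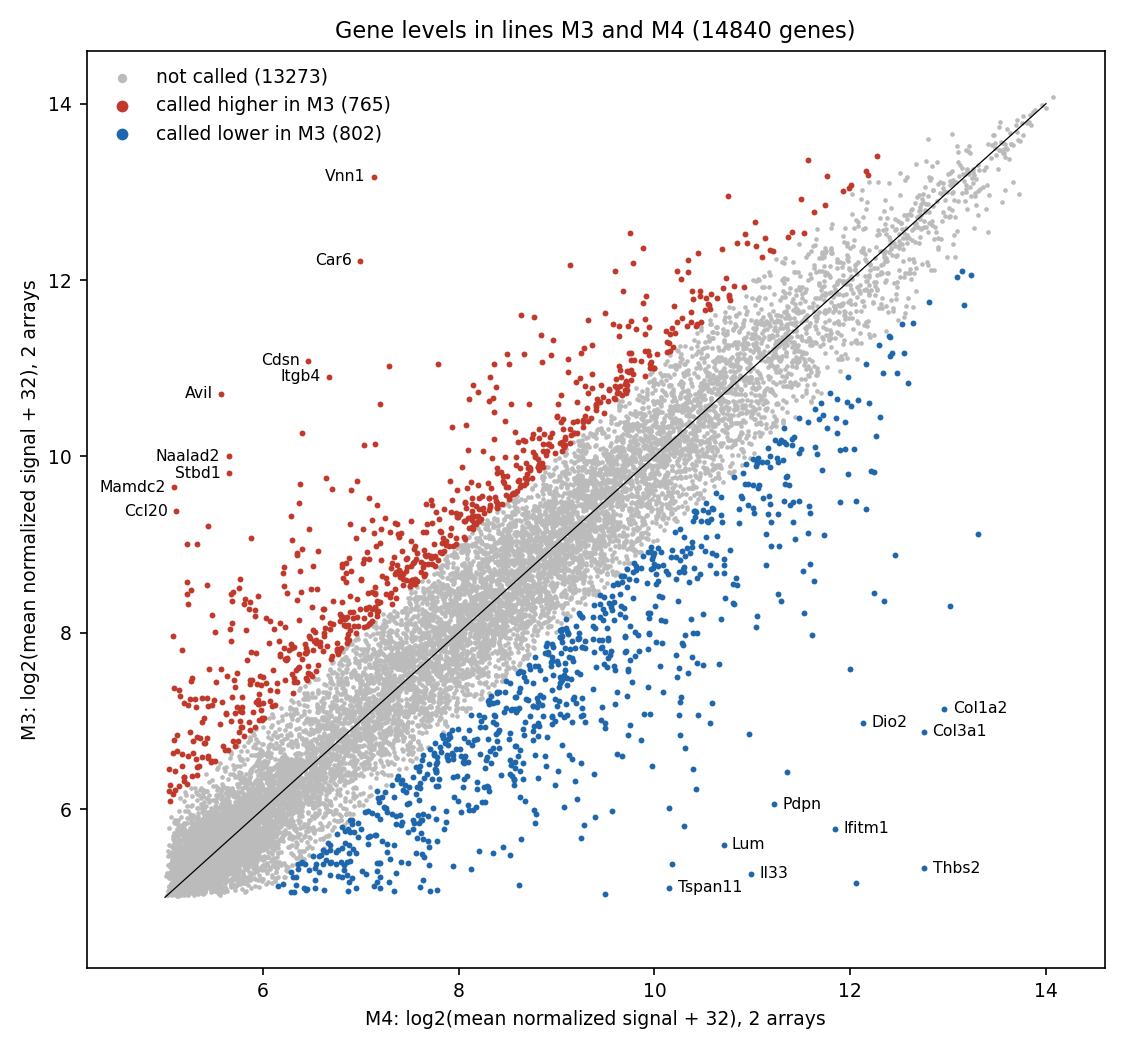
Each point is 1 of 14840 genes, with log2(mean normalized signal + 32) of the 2 M4 arrays on the horizontal axis and of the 2 M3 arrays on the vertical axis; the line marks equal levels. Red points are the 765 genes called higher in M3 and blue points the 802 called lower; Vnn1 and Thbs2 lie farthest from the line among the labelled genes.

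The largest changes toward M3 were in genes with no single function in common. Vnn1, a pantetheinase anchored in the cell membrane, read 9038 and 9344 in M3 against 111 and 105 in M4, a change of 6.04 ± 0.08 (SE; limma adjusted p = 8.07e-14), or 65.8-fold. Car6, a secreted carbonic anhydrase, read 4769 and 4716 in M3 against 90.2 and 100.2 in M4, and Avil, an actin-bundling protein of the villin family, read 1661 and 1620 against 27.4 and 4.06. Both genes stood clear of the other line's arrays by far more than the gap between arrays of a line. Among the other genes in the 15 largest rises were Cdsn, a corneodesmosome protein of the skin, by 4.63, the chemokine Ccl20 by 4.26, the integrin subunit Itgb4 by 4.24, the cystathionine lyase Cth by 3.86, the leukocyte adhesion molecule Icam1 by 3.78, the cytokine signalling inhibitor Socs2 by 3.74 and the desmosome-associated protein Perp by 3.40. The remaining 5 were Mamdc2, Naalad2, Stbd1, Agmo and Pkia, with rises of 3.69 to 4.56.

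The 15 largest falls included 5 matrix proteins. Thbs2, a matricellular thrombospondin, read 14.5 and 2.00 in M3 and 6862 and 6932 in M4, a change of -7.45 ± 0.13 (limma adjusted p = 7.14e-13). Col3a1 changed by -5.87, Col1a2 by -5.82, the collagen-binding proteoglycan Lum by -5.14 and the proteoglycan Bgn by -4.41. Outside the matrix, the change was -6.06 for the interferon-induced membrane protein Ifitm1, -5.72 for the alarmin cytokine Il33, -5.20 for the lymphatic and fibroblast glycoprotein Pdpn, -5.15 for the thyroid hormone deiodinase Dio2, -4.80 for the pentraxin Ptx3 and -4.72 for Plac8. Tspan11, Akr1c18, Gask1b and Cox7b2 completed the 15, with changes of -5.05 to -4.46. Thbs2, Il33 and Lum were at or near the bottom of the signal range in M3, so their changes depend on the constant added before the logarithm. The change of Ptx3 was -2.22 with the mean of a gene's probe sets, since a second probe set was not called (0.37), and on that average the rises of Socs2 and Naalad2 were 2.11 and 2.90.

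**Figure D2:**
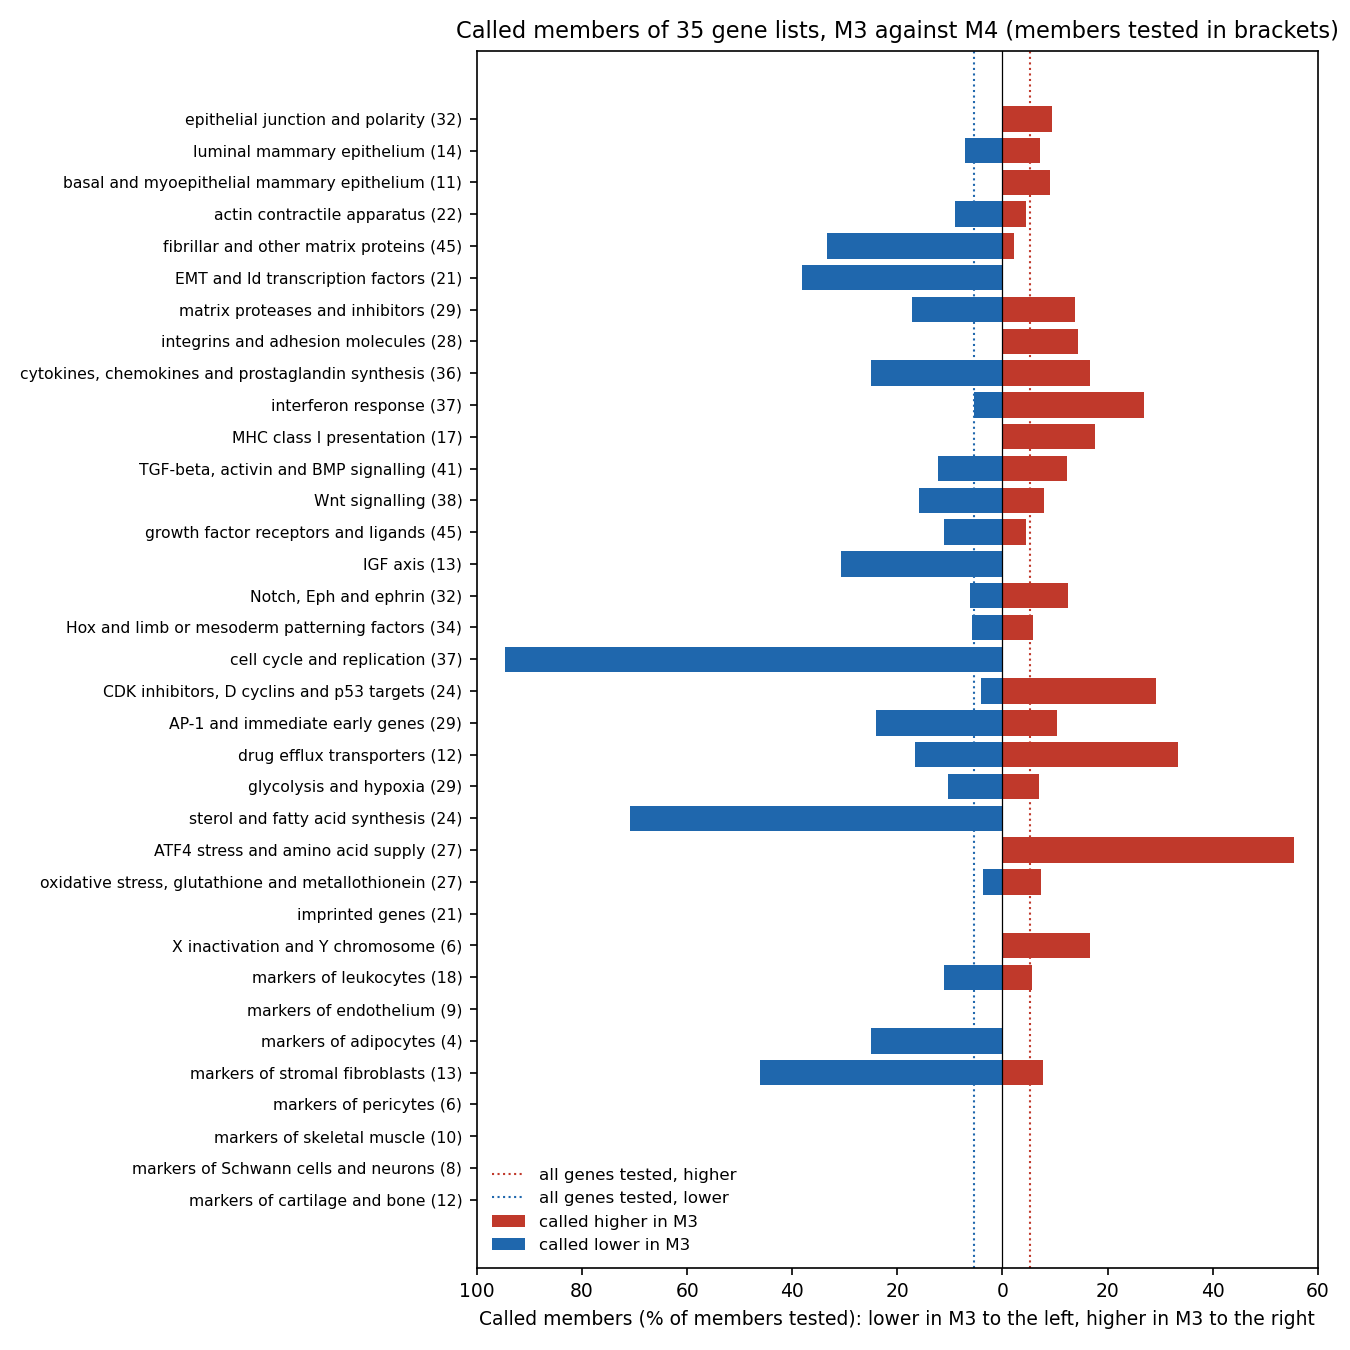
Bars give, for each of 35 gene lists, the members called higher in M3 (red, to the right) and lower in M3 (blue, to the left) as a percentage of the members tested, whose number is in brackets. Dotted lines mark the 5.15% and 5.4% of all genes tested that were called in each direction; the longest bars are those of the cell cycle list (35 of 37 lower), the sterol and fatty acid list (17 of 24 lower) and the ATF4 list (15 of 27 higher).

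Genes of cell division were lower in M3 almost throughout. Of 37 tested genes of the cell cycle and replication list, 35 were called lower in M3 and none higher, with a median change of -2.41 where the median of all genes was 0.00. In RNA from a whole culture, fewer dividing cells and less of these messengers per cell cannot be told apart. Birc5, a subunit of the chromosomal passenger complex of mitosis, read 218 and 223 in M3 against 3094 and 3082 in M4, a change of -3.63 ± 0.05 (limma adjusted p = 7.74e-14), or 12.4-fold lower. M4 resembled the remaining lines in this gene, whose means were 1900 in E, 3056 in M1 and 2855 in M2, and M3 was the line that stood apart.

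Genes of each stage of the cycle were among the falls. At the start of DNA synthesis, the G1/S cyclin Ccne2 read 35.4 and 26.4 in M3 and 727 and 721 in M4, and Cdc6, which loads the replicative helicase, read 40.2 and 34.1 against 551 and 565. Rrm2, the regulated subunit of ribonucleotide reductase, which makes deoxynucleotides, read 444 and 439 against 5555 and 5597. The helicase subunits Mcm2 to Mcm7 were all called lower, with changes from -1.12 for Mcm7 to -2.92 for Mcm6. Of the mitotic genes, the kinase Plk1 read 97.1 and 107.2 in M3 and 1139 and 1228 in M4, a change of -3.18, while the mitotic cyclin gene Ccnb2 changed by -2.86, its kinase Cdk1 by -2.57, Top2a, the topoisomerase that untangles chromosomes, by -3.04 and the proliferation marker Mki67 read 123 and 121 against 1249 and 1159. The smallest called change was that of the sliding clamp Pcna, at -1.06, with 4135 and 4164 in M3 against 8609 and 8723 in M4. Both members that missed the fold threshold were in the same direction, E2f1 with a change of -0.96 and the licensing factor Cdt1 with -0.36.

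The promoters of 3 of these genes are shown because mitotic genes are known to be regulated together through a cell cycle homology region (CHR), whose core letters are TTTGAA, and a CCAAT box. The windows run from 250 bases before to 50 bases after the gene start, are from RefSeq on GRCm38.p6, and are written 5′ to 3′ on the strand of the gene, with CHR letters on either strand in capitals. They are Plk1 at chr7:122159185-122159484 on the plus strand, Top2a at chr11:99024140-99024439 on the minus strand and Mki67 at chr7:135716330-135716629 on the minus strand, and they were picked after their values were seen.
Plk1: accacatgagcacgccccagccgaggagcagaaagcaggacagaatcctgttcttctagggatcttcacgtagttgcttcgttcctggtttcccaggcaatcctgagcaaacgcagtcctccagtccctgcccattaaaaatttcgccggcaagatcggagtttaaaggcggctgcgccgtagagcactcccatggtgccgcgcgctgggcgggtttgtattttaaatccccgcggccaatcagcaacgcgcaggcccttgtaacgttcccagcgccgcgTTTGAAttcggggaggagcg
Top2a: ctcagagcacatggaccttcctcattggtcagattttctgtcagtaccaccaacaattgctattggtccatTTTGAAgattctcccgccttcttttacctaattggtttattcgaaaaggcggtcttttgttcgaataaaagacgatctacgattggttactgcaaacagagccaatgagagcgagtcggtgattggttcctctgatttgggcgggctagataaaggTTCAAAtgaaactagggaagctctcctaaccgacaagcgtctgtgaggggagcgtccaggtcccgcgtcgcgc
Mki67: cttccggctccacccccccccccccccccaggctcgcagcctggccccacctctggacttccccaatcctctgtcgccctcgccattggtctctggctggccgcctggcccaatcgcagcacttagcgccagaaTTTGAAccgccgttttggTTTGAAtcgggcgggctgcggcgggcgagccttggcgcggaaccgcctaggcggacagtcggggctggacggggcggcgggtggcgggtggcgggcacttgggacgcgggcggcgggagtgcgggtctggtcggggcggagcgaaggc
Plk1 holds TTTGAA 1 time, and Top2a and Mki67 hold it 2 times each.

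A RefSeq promoter window was matched by symbol to 27 of the 35 called cell cycle genes and to 11837 of the 14840 genes tested. Searched on both strands, TTTGAA was present in 12 of the 27 (44.4%) and in 14.7% of the windows of tested genes. CCAAT was present in 23 of the 27 (85.2%) against 42.1%, and the E2F-type letters TTTNNCGC, where N is any base, in 8 of the 27 (29.6%) against 8.9%. Each motif was counted on its own, and matches of different motifs may overlap. Of the 29 tested members with a window, called or not, 41.4% held TTTGAA, 79.3% CCAAT and 31.0% the E2F-type letters. These shares describe the list, nearly all of whose members were called, and not the difference between M3 and M4. A match is a description of the letters in the window and not of a bound site.

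Inhibitors of the cycle did not form an equally uniform group. Of 24 tested genes of a list of CDK inhibitors, D cyclins and p53 targets, 7 were called higher and 1 lower, with a median change of 0.54. The p21 gene Cdkn1a, a p53 target that blocks cyclin-dependent kinases, read 3033 and 2838 in M3 against 2516 and 2341 in M4 and was not called (change 0.27, limma adjusted p = 0.0678), and the p27 gene Cdkn1b, at -0.61, was not called either. Called higher were the kinase Plk2 by 1.63, the ectodysplasin receptor Eda2r by 1.54, the death receptor gene Fas by 1.33 and the stress protein Sesn2 by 1.33, while the CDK4/6 inhibitor Cdkn2d was lower by a change of -1.66. Of the D cyclins, Ccnd1 changed by -0.11 and Ccnd2 by 0.76, neither a call.

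Enzymes of sterol and fatty acid synthesis were lower in M3 as well. These genes are known targets of the SREBP transcription factors, which respond to membrane sterol. Of 24 tested members, 17 were called lower and none higher, and the median change was -1.53. Along the mevalonate and cholesterol branch, Mvk, mevalonate kinase, read 86.7 and 60.9 in M3 against 517 and 482 in M4, and Idi1, isopentenyl diphosphate isomerase, read 337 and 292 against 2463 and 2382. Cyp51, the lanosterol demethylase, read 416 and 353 against 2949 and 2846, a change of -2.82 ± 0.07 (limma adjusted p = 1.02e-11), or 7.06-fold lower. In all 3 genes the M3 arrays lay far below both M4 arrays. Fdft1, squalene synthase, changed by -2.23 and Dhcr7, which makes cholesterol from its last precursor, by -2.12, and the earlier and middle enzymes Hmgcs1 and Sqle changed by -1.87 and -1.59.

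In the fatty acid branch, the synthase Fasn changed by -1.17 and the desaturase Scd1 by -1.40, with 1857 and 2015 in M3 and 5109 and 5188 in M4. The 7 tested members that were not called all had negative changes. Among them were both SREBP genes: Srebf1 read 433 and 393 in M3 and 465 and 421 in M4, a change of -0.09 (limma adjusted p = 0.321), and Srebf2 changed by -0.95. Of the 17 called genes, 12 had a RefSeq promoter window, and 10 of them (83.3%) held CCAAT. So did 15 (83.3%) of the 18 tested members with a window, called or not, and 42.1% of all tested genes with one. None of the 12 held the letters searched for the sterol regulatory element on either strand. Only 23 of the 11837 tested genes with a window (0.2%) held that strict string, so 12 windows are too few for its absence to be informative. Whether these promoters hold sterol regulatory elements of other spelling was not tested.

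Genes of amino acid supply and of the ATF4 stress pathway moved the opposite way. ATF4 is a transcription factor made when amino acids run short or proteins misfold, and it turns on amino acid transporters and synthetic enzymes. Of 27 tested members, 15 were called higher in M3 and none lower, with a median change of 1.10. Trib3, a pseudokinase that dampens this response, read 2288 and 2238 in M3 against 327 and 330 in M4, a change of 2.67 ± 0.06 (limma adjusted p = 5.96e-12), or 6.36-fold. Cth, which makes cysteine, read 1205 and 1188 against 47.8 and 57.3, and the lipoprotein receptor gene Vldlr read 2062 and 2108 against 342 and 328. M1 resembled M3 in Trib3 and Cth, with means of 1772 and 762, and M2 resembled M4, with means of 175 and 48.4.

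The glutathione-degrading enzyme Chac1 rose by 1.92, the stress protein Nupr1 by 1.95, the ATF4-induced transcription factor Ddit3 by 1.73 and the asparagine synthetase Asns by 1.00, at the threshold, a call lost under 4 of 20 alternatives. Called transporters included Slc7a5 and its partner Slc3a2, which carry large neutral amino acids, by 1.44 and 1.58, Slc1a4 by 1.60 and the cationic transporter Slc7a1 by 1.10. With the mean of a gene's probe sets, Ddit3 (0.67) and Slc7a1 (0.60) were not called. The serine phosphatase Psph rose by 1.87 and Aldh18a1, of proline synthesis, by 1.91. Not every known target followed: the cystine transporter Slc7a11 read 130 and 154 in M3 and 145 and 147 in M4, and the serine synthesis enzymes Psat1 and Phgdh changed by 0.12 and 0.58 without a call. The messenger of Atf4 itself changed by 0.23 (5109 and 5405 in M3, 4518 and 4408 in M4), under the fold threshold.

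Promoters of 3 of the called genes are printed because they hold the composite C/EBP-ATF response letters TGATGNAA, through which ATF4 is known to act, shown in capitals on either strand. The windows are again RefSeq's on GRCm38.p6, on the strand of the gene, and were picked after their values were seen: Trib3 at chr2:152344011-152344310 on the minus strand, Vldlr at chr19:27216770-27217069 on the plus strand and Nupr1 at chr7:126625421-126625720 on the minus strand.
Trib3: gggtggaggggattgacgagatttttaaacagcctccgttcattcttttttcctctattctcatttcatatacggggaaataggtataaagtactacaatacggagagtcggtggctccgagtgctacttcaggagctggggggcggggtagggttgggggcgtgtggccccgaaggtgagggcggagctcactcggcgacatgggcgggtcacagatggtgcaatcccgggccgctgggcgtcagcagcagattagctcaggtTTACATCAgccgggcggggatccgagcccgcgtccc
Vldlr: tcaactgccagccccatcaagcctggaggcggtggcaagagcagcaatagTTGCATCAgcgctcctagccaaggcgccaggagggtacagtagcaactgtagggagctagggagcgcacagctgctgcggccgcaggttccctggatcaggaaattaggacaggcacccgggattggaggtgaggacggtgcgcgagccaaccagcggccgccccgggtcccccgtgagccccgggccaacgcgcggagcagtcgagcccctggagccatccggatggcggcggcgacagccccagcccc
Nupr1: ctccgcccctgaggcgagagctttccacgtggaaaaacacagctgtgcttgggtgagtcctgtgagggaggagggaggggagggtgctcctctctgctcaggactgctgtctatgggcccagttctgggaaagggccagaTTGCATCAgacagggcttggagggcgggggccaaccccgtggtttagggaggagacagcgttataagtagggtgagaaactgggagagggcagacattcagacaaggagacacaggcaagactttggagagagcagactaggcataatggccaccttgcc
Of the 13 called members with a RefSeq window, 6 (46.2%) held TGATGNAA on either strand, against 3.0% of the windows of tested genes. Of the 23 tested members with a window, called or not, 8 (34.8%) held it. The list was put together as genes of this pathway, so these shares describe the list and not the difference between M3 and M4.

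**Figure D3:**
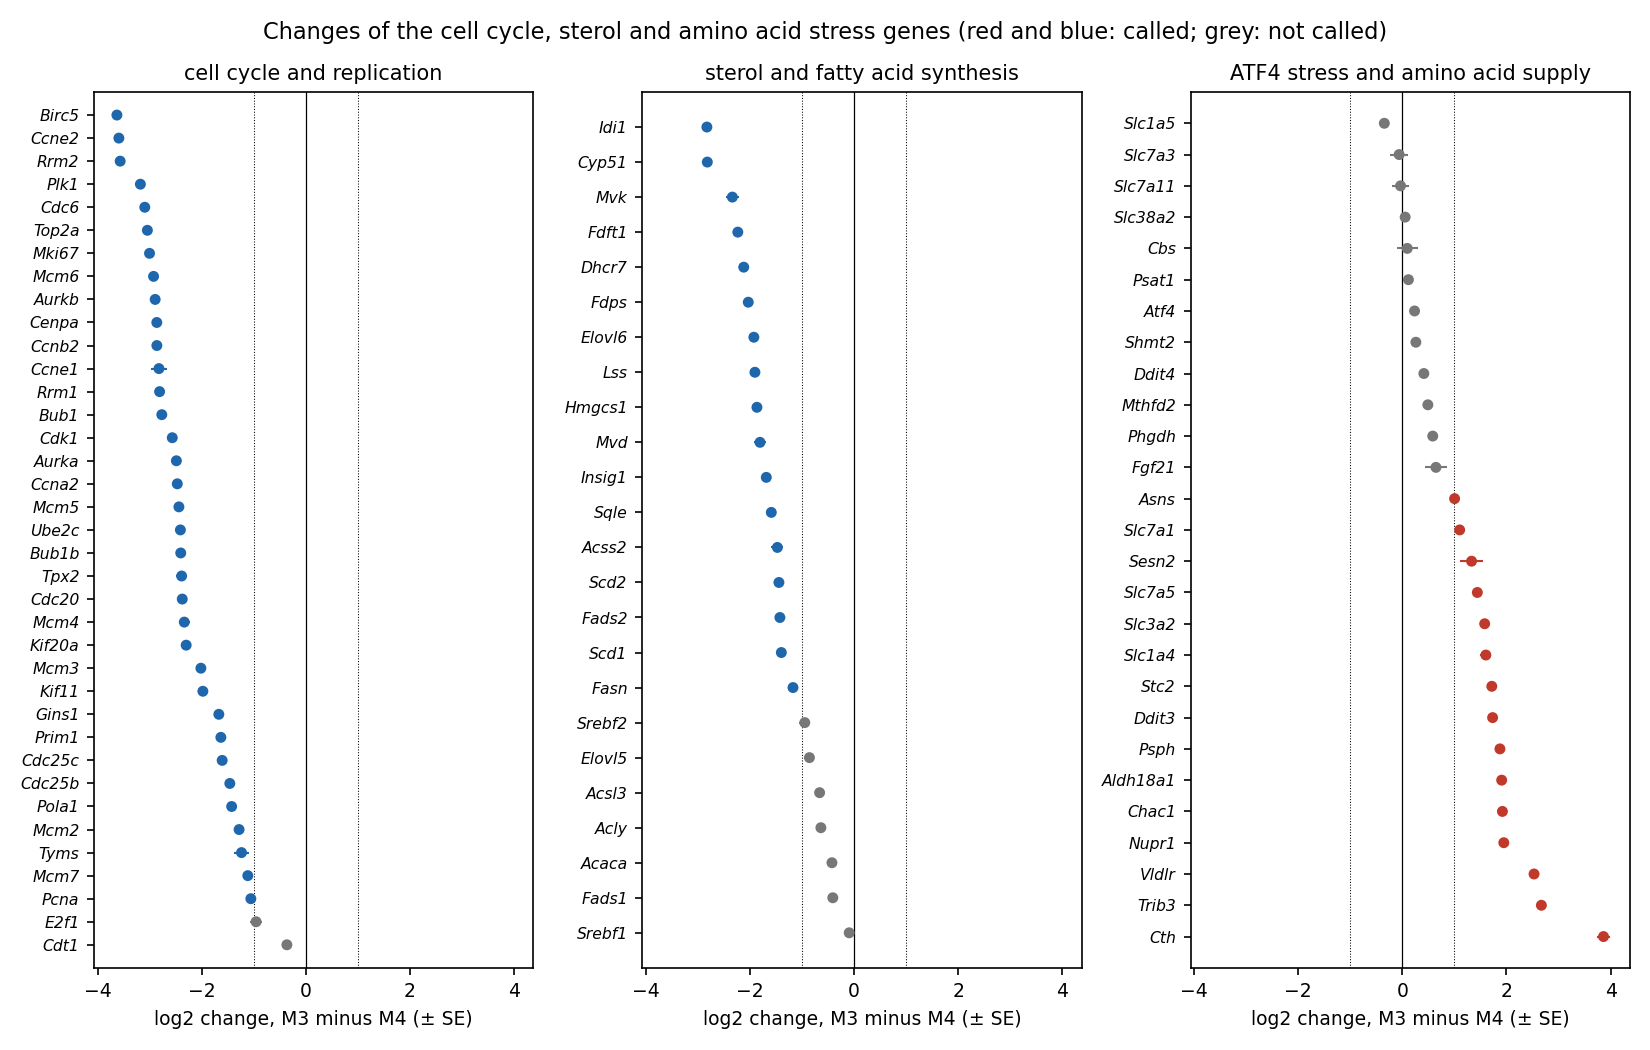
Each point is a gene's log2 change, M3 minus M4, with its standard error, for the tested members of the cell cycle, sterol and fatty acid, and ATF4 lists; red marks genes called higher in M3, blue genes called lower and grey genes not called. The cell cycle and sterol genes lie left of 0, with medians of -2.41 and -1.53, and most genes of the ATF4 list lie to the right, with a median of 1.10.

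Early response genes of growth factor signalling split by member. Of 29 tested genes of the AP-1 and immediate early list, 7 were called lower and 3 higher, with a median change of 0.07. Egr1, a zinc finger factor induced within minutes by serum, read 176 and 164 in M3 and 1374 and 1322 in M4, a change of -2.77 ± 0.06 (limma adjusted p = 2.91e-12). Fos, an AP-1 subunit, read 103.4 and 119 against 673 and 673, and the orphan receptor Nr4a1 and the AP-1 subunit Jun changed by -1.97 and -1.63. Higher in M3 were the stress-induced Atf3 by 1.73, Myc by 1.02 and the phosphatase Dusp5 by 1.02, the last 2 near the threshold and lost under 4 and 7 of 20 alternatives, so members of the same early class lay on both sides.

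Collagens and other proteins of the extracellular matrix that were called were, with 1 exception, lower in M3. Of 45 tested matrix genes, 15 were called lower and 1 higher, and the median change was -0.54. Col1a1 and Col1a2 encode the chains of type I collagen, and Col3a1 that of type III, the main fibrillar collagens of connective tissue. Col1a2 read 103 and 115 in M3 and 8175 and 7707 in M4, Col3a1 read 86.0 and 85.1 against 6848 and 6884, and Col1a1 read 88.9 and 99.2 against 1499 and 1469. For all 3 chains both M3 arrays lay far below both M4 arrays. Col5a1, Col5a2, Col6a3 and Col12a1 were lower as well, by changes of -2.40, -1.85, -3.42 and -2.64, the last being -1.24 on values as deposited.

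The other mesenchymal lines did not share one pattern in these genes. Col1a2 was as high in M1 (mean 8638) as in M4 and low in M2 (mean 146), while Thbs2, at means of 108 in M1 and 124 in M2, was high in M4 alone, as was Lum, at means of 8.86 in M1 and 12.1 in M2. Bgn, a small proteoglycan that binds collagen and growth factors, read 149 and 173 in M3 and 3895 and 4208 in M4, with means of 42.8 in M1 and 87.5 in M2. One matrix gene went the other way: Col8a1, a short-chain collagen, read 2740 and 2792 in M3 and 876 and 859 in M4, a rise of 1.64. The proteoglycan Dcn was high in both lines and not called, with 8095 on both M3 arrays and 9653 and 10041 in M4, and fibronectin, Fn1, changed by -0.79 without a call.

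Markers of stromal fibroblasts moved with the matrix genes. Of 13 tested, 6 were called lower in M3 and 1 higher, the median change was -0.89, and their summed signal was 23136 to 23206 on the M3 arrays and 41999.9 to 42366.8 on the M4 arrays. The list shares Lum, Col1a1, Col3a1 and Mfap5 with the matrix list; outside it, the platelet-derived growth factor receptor gene Pdgfra read 844 and 937 in M3 and 3652 and 3001 in M4, whereas Pi16, a marker of adventitial fibroblasts, was higher in M3, with 235 and 230.2 against 8.62 and 28.6. S100a4, Dcn and Thy1 of this list were not called. Dpt, Fap and Clec3b, further fibroblast markers, did not pass the filter on low signals. What part other fibroblasts had in the matrix result was not tested.

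Transcription factors of the epithelial-mesenchymal transition and the Id genes, which encode inhibitors of DNA binding by helix-loop-helix factors, were lower in M3 or not called. Of 21 tested, 8 were called lower and none higher, with a median change of -0.53. Snai2, the Slug repressor of junction genes, read 610 and 547 in M3 against 2714 and 2671 in M4, a change of -2.16 ± 0.08 (limma adjusted p = 4.1e-10). Twist2 read 1050 and 1037 against 3853 and 3722. Both genes were far above the E means of 5.15 and 11.2 in either line. Prrx1 and Prrx2, homeobox factors of mesenchyme, changed by -1.42 and -1.51. Zeb1 and Zeb2, repressors of Cdh1, changed by 0.39 and 0.20 and were not called, nor was Twist1, at -0.70 with signals under 100. Snai1 passed with a change of -1.13 at signals of 17.4 and 33.6 in M3 against 78.0 and 109 in M4, and that call was lost under 7 of 20 alternatives.

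The Id genes are known targets of BMP signalling. Id1 read 269 and 264 in M3 and 2940 and 2913 in M4, a change of -3.31. Id2 read 214 and 225 against 1189 and 1282, and Id3 1309 and 1301 against 2984 and 3023. All 3 were lower in M3, while Id4 changed by 0.78 without a call. With the mean of a gene's probe sets, the change of Id2 was -1.48 beside -2.33.

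Adhesion molecules were higher in M3 where they were called. Of 28 tested integrins and adhesion molecules, 4 (14.3%) were called higher and none lower, where 10.6% of all genes tested were called and 5.15% higher. The median change of the list was 0.03. With no fold minimum and an unadjusted p under 0.05, limma put 11 higher and 5 lower. By that rule, 4105 of all 14840 genes tested were higher and 3829 lower. The leukocyte ligand Icam1 read 575 and 546 in M3 against 13.4 and 9.18 in M4, and its relative Vcam1 read 3350 and 3389 against 1473 and 1452. N-cadherin, Cdh2, a cadherin of mesenchymal cells, read 1107 and 1084 in M3 and 490 and 412 in M4, a rise of 1.23. Alcam rose by 1.20. No integrin subunit of this list was called, and the hyaluronan receptor Cd44 was level, with 3789 and 3778 in M3 and 3722 and 3558 in M4.

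**Figure D4:**
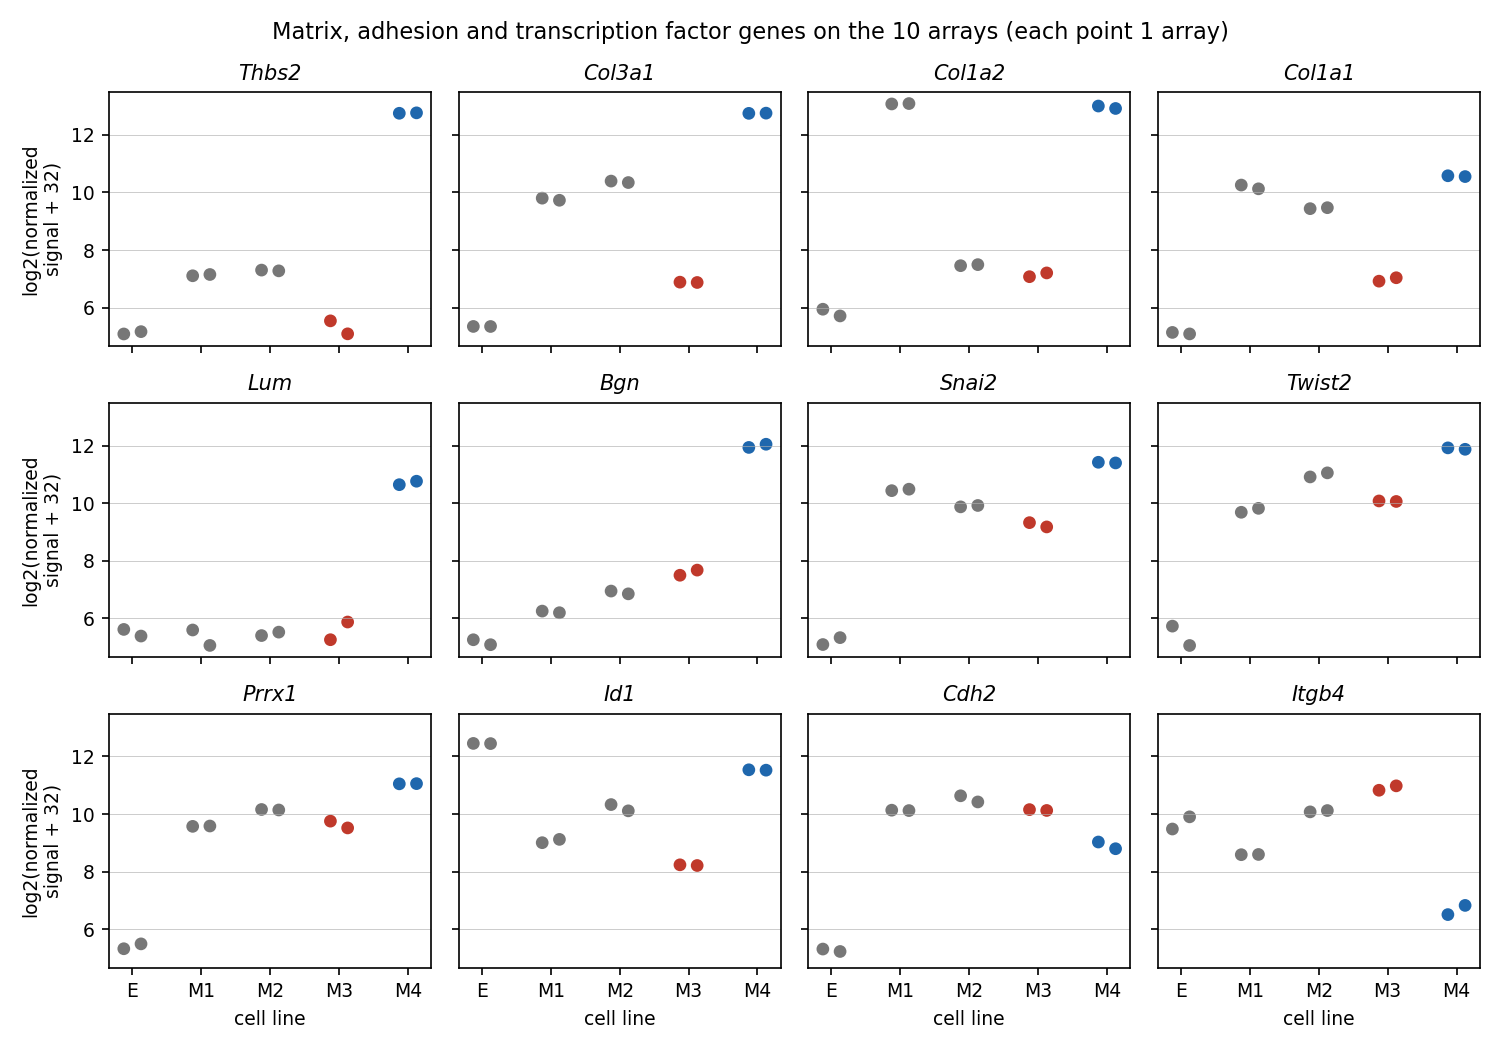
Panels show log2(normalized signal + 32) of 12 genes on the 10 arrays by cell line, each point 1 array, with M3 in red, M4 in blue and the other lines in grey. Thbs2, Col3a1, Lum, Bgn, Snai2, Twist2 and Prrx1 are highest in M4, Col1a2 is equally high in M1 and M4, and Cdh2 and Itgb4 are higher in M3 than in M4.

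Most junction genes of epithelium had low signals in both lines. Only 3 of 32 tested members, Perp, F11r and the plakophilin gene Pkp3, passed a mean signal of 100, in M3 and in M4 alike, and Pkp3 was not called. Of the 32 members of the epithelial junction and polarity list, 3 (9.38%) were called higher in M3 and none lower, where 10.6% of all genes tested were called in either direction and 5.15% higher. At an unadjusted limma p under 0.05, 6 members were higher and 1 lower, where 4105 of all 14840 genes tested were higher and 3829 lower. Perp read 1462 and 1574 in M3 against 115 and 115 in M4, and it was high in every other line, with means of 3393 in E, 1732 in M1 and 1247 in M2. The tight junction protein F11r read 396 and 378 against 158 and 113. E-cadherin, Cdh1, read 89.5 and 80.4 in M3 and 0.71 and 11.7 in M4, against a mean of 3036 in E, so its called rise of 1.63 was a difference between low levels, and it was not called when values under 64 were set to 64. The rise of F11r rested on 1 of its probe sets and was not called when probe sets of a gene were averaged.

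Of 11 tested basal and myoepithelial genes, 1 (9.09%) was called, near the 10.6% of all genes tested. Itgb4, the partner of integrin alpha 6 in hemidesmosomes, read 1784 and 1987 in M3 and 58.9 and 81.4 in M4, a rise of 4.24 ± 0.13 (limma adjusted p = 4.25e-11), and with means of 804 in E, 354 in M1 and 1064 in M2 it was M4 that stood apart. Of 14 tested luminal genes, 2 (14.3%) were called, where 10.6% of all genes tested were. The oestrogen receptor gene Esr1 was called higher on 1 probe set, with 273 and 278 in M3 against 68.3 and 63.0 in M4. It had no call on another probe set (change 0.12) or with the mean of a gene's probe sets. Wfdc18 fell by 1.12 at low signals. The receptor tyrosine kinase gene Erbb2 read 115 and 118 in M3 and 181 and 149 in M4, and was not called (change -0.40, limma adjusted p = 0.0118). Of 22 tested genes of the contractile apparatus, 3 (13.6%) were called, not far from the share of all genes. Smooth muscle actin Acta2 and the tropomyosin gene Tpm2 were lower, by changes of -1.96 and -1.26, and the myosin light chain kinase gene Mylk was higher by 1.69.

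Proteases that remodel matrix lay on both sides. Of 29 tested proteases and inhibitors, 4 were called higher and 5 lower in M3, and the median change was -0.06. The stromelysin gene Mmp3 read 328 and 306 in M3 and 4844 and 4781 in M4, a change of -3.80, whereas the collagenase gene Mmp13 read 7812 and 7921 in M3 and 1676 and 1698 in M4, a rise of 2.20. The gelatinases also differed in direction: Mmp9 rose by 1.96 and Mmp2 fell by 1.53. Of the tissue inhibitors, Timp3 rose by 2.36, Timp1 fell by 1.95 and Timp2, at -0.09, was not called. Each line thus had its own high members of the same families.

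Secreted signals to immune cells also split. Of 36 tested cytokines, chemokines and enzymes of prostaglandin synthesis, 6 were called higher in M3 and 9 lower. Ccl20, which attracts dendritic cells and lymphocytes, read 693 and 573 in M3 and 3.74 and 1.47 in M4, and the growth factor of granulocytes and macrophages, Csf2, read 337 and 361 against 5.76 and 4.96. Cx3cl1, fractalkine, read 2085 and 2094 against 269 and 324, although 2 further probe sets of that gene gave changes of -0.01 and 0.71 and no call. Il33 was the largest fall of the group, with 5.82 and 7.25 in M3 and 2029 and 1976 in M4, and M4 was the only line in which it passed a mean of 100. The prostaglandin E synthase Ptges changed by -2.57, the eosinophil chemokine Ccl11 by -2.49, Il6 by -1.88 and the stromal chemokine Cxcl12 by -1.66. The change of Ccl11 was -1.35 when values under 64 were set to 64.

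Of 37 tested interferon-induced genes, 10 were called higher in M3, 2 lower and 25 were not called, and the median change was 0.56. Their summed signal was 24202 to 24280 on the M3 arrays and 24120 to 24798 on the M4 arrays, so the sums of the lines overlapped. That overlap rested on Ifitm1, whose signals are given below. Without it, the sums of both M3 arrays were above those of both M4 arrays. Bst2, tetherin, which holds budding viruses at the cell surface, read 2345 and 2140 in M3 against 447 and 471 in M4, and the antiviral protein Ifit3 read 175 and 196 against 41.0 and 39.9. The GTPase genes Irgm1 and Gbp2 rose by 1.43 and 1.20 and the RNA sensor Ifih1 by 1.34, the last not called when values under 64 were set to 64. The 2 called lower were Ifitm1, with 26.2 and 19.7 in M3 and 3727 and 3552 in M4, against means of 14.7 in E, 16.5 in M1 and 127 in M2, and Oasl1, which fell by 1.05, a call lost under 5 of 20 alternatives. The factors that carry the interferon signal were not called, with Stat2 at 0.02 and Irf9 at 0.79.

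Of 17 tested genes of antigen presentation on MHC class I, 3 (17.6%) were called higher and none lower, where 10.6% of all genes tested were called and 5.15% higher. At an unadjusted limma p under 0.05, 13 were higher and 3 lower, where 4105 of all 14840 genes tested were higher and 3829 lower. The median change of the list was 0.62. Nlrc5, the transactivator of class I genes, read 258 and 260 in M3 and 23.2 and 34.3 in M4, a rise of 2.27, and Cd274, the PD-L1 checkpoint ligand counted in this list, read 113 and 120 against 21.0 and 10.5, a call lost when values under 64 were set to 64. The count called higher ran from 2 to 6 over 20 alternatives. The immunoproteasome subunit Psmb9 stood at the threshold, with a rise of 1.00, and was lost under 5 of 20 alternatives. H2-K1 and B2m, the heavy and light chains of the class I molecule, changed by 0.90 and 0.57 without a call.

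Bmp4 and Tgfb3, ligands of the TGF-beta family, were lower in M3, and so were several inhibitors of that family. Of 41 tested genes of this pathway, 5 were called in each direction and the median change was -0.02. Bmp4 read 171 and 194 in M3 and 1272 and 1050 in M4, a change of -2.47, and Tgfb3 changed by -1.25. Fst, follistatin, which binds activin, read 530 and 513 against 3354 and 3381, and its relative Fstl1 read 34.7 and 51.4 against 1401 and 1284. The inhibitory Smad6, itself induced by BMPs, changed by -1.39. Higher in M3 were the signal transducer Smad1 by 1.13, the corepressors Tgif1 and Skil by 1.41 and 1.31, the latent binding protein Ltbp1 by 1.07 and the activin receptor Acvr2a by 1.02. The count of higher genes rested on the choice of probe set: with the mean of a gene's probe sets 2 were called higher and 5 lower, and Smad1, Skil (0.70) and Acvr2a were not called. Ltbp1 lost its call under 2 of 20 alternatives and Acvr2a under 5.

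In the Wnt pathway, 3 of 38 tested genes were called higher and 6 lower. Wnt5a, a ligand that mostly signals without beta-catenin, read 326 and 391 in M3 and 20.7 and 24.0 in M4, a rise of 2.84, and Ror1, a receptor tyrosine kinase that binds it, rose by 1.58. M1 and M2 also had Wnt5a, with means of 528 and 357, so M4 was the mesenchymal line with the lowest signals. The receptors Fzd2 and Fzd7 were lower by changes of -1.81 and -1.39 and Fzd6 was higher by 1.34. Axin2, a usual read-out of beta-catenin signalling, changed by -0.03 and was not called. With the mean of a gene's probe sets, 1 gene was called higher and 5 lower: Ror1 (0.86), Fzd6 (0.62) and Fzd7 (-0.87) lost their calls and the rise of Wnt5a was 1.72.

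Of 45 tested growth factor receptors and ligands, 7 (15.6%) were called, where 10.6% of all genes tested were. In M3, 5 of them were lower and 2 higher. Over 20 alternatives the count of lower genes ran from 5 to 7 and that of higher genes from 2 to 5. Pdgfc, a ligand of Pdgfra, read 54.7 and 60.8 in M3 and 968 and 974 in M4, a change of -3.48, so that the ligand and the receptor were both lower in M3. Hgf, the ligand of the Met receptor, read 29.2 and 30.5 against 408 and 416, while Met itself changed by 0.81 without a call. Of the lymphatic growth factors, Vegfd fell by 2.18 and Vegfc rose by 1.39. Members of the epidermal growth factor family split: Hbegf rose by 1.39, and Ereg was lower, with changes of -1.58 to -1.37 over 20 alternatives.

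The insulin-like growth factor axis had 4 of 13 tested members called, all lower in M3. Irs1, the adaptor of the insulin and IGF receptors, read 128 and 106 in M3 and 1228 and 1161 in M4, a change of -3.05. The ligand Igf1 read 8.19 and 18.8 against 259 and 330, and the binding protein Igfbp7 read 164 and 145 against 1309 and 1226, a change of -2.80, or -1.67 with the mean of a gene's probe sets. The receptor gene Igf1r changed by -0.07 and was not called.

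Of 32 tested genes of Notch and ephrin signalling, 6 (18.8%) were called, 4 higher and 2 lower, where 10.6% of all genes tested were called. The Notch ligand gene Jag1 rose by 1.52, while the target gene Hes1 and Lfng, a glycosyltransferase that modifies Notch, changed by -1.45 and -1.48, and no Notch receptor was called. Epha2, Ephb6 and Efnb2 were higher by 1.02 to 1.23. With the mean of a gene's probe sets, 2 were called higher and 1 lower, and Jag1 (0.58), Efnb2 (0.64) and Lfng (-0.75) were not called. Of 34 tested patterning factors, 4 (11.8%) were called, near the 10.6% of all genes tested. Hoxb5 and Hoxb9 were called higher and Msx1 and Dlx1 lower. The calls of Hoxb5, Hoxb9 and Dlx1 were lost when values under 64 were set to 64, as all 3 rest on low signals. Msx1 was not called with the mean of a gene's probe sets.

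Transporters and energy metabolism gave smaller groups. Of 12 tested drug efflux transporters, 4 were called higher and 2 lower. The 2 lower rest on low signals: Abcc3 read 12.9 and 23.1 in M3 and 120 and 113 in M4, and Abcg1 18.7 and 24.6 against 98.0 and 81.9. Neither was called when values under 64 were set to 64, and a second Abcg1 probe set changed by -0.02 without a call. Abcc4, which exports cyclic nucleotides and drugs, read 2140 and 2180 in M3 and 803 and 861 in M4, and Abcb1a, P-glycoprotein, read 327 and 306 against 134 and 108, a rise of 1.19. Of 29 tested genes of glycolysis and hypoxia, 5 (17.2%) were called, where 10.6% of all genes tested were. Ndrg1 and Car12 were higher by 2.41 and 1.33, and Epas1 and Ldhb were lower by changes of -1.34 and -1.02. Egln3 was lower at the threshold, while the glucose transporter Slc2a1 changed by 0.09. The count of lower genes in this list ran from 1 to 4 over 20 alternatives, and Car12 was not called when values under 64 were set to 64. Of 27 tested genes of oxidative defence, 3 (11.1%) were called, near the 10.6% of all genes tested. Txnip, an inhibitor of thioredoxin and of glucose uptake, read 1824 and 1943 in M3 and 290 and 287 in M4, a rise of 2.58. Gstm5 rose by 1.58 and Aldh3a1 fell by 1.03.

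Markers of other cell types were at or near the bottom of the range with a few exceptions. Of 18 tested leukocyte markers, 3 (16.7%) were called, where 10.6% of all genes tested were. S100a8, a calprotectin subunit of neutrophils, was lower in M3, with 585 and 459 against 10067 on both M4 arrays, while its partner S100a9 changed by -0.03. Cd14 fell by 1.25 and Lyz2 was called higher at low signals. The summed signal of the leukocyte markers was 1592 to 1612 on the M3 arrays and 11428 to 11446 on the M4 arrays, and S100a8 made up most of it on the M4 arrays alone, whereas the leukocyte common antigen Ptprc stayed under 11 on all 4 arrays and Cd3e under 24. The lipase gene Lpl, an adipocyte marker, read 2.62 and 3.62 in M3 and 329 and 390 in M4, and Adipoq, which defines that cell type, did not pass the filter on low signals.

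No marker of endothelium, pericytes, skeletal muscle, Schwann cells and neurons, or cartilage and bone was called by limma among 9, 6, 10, 8 and 12 tested. At an unadjusted limma p under 0.05 with no fold minimum, 1, 2, 4, 3 and 5 of them differed. No imprinted gene was called among 21 tested, and 5 differed at that unadjusted threshold. Of all 14840 genes tested, 4105 were higher and 3829 lower in M3 at the same threshold, so such differences are common here. Xist, the RNA that silences an X chromosome in female cells, read 1618 and 1709 in M3 and 1587 and 1412 in M4 and was not called. Of the genes linked to X inactivation and the Y chromosome, the histone demethylase gene Kdm6a was called, with a rise of 1.27, or 0.71 and no call with the mean of a gene's probe sets.

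Changes were uneven along the genome. Medians were taken over the tested genes of each chromosome, with chromosomes from RefSeq on GRCm38.p6, for 14735 genes. Chromosome 18 had the highest median, 0.34, with 54 genes called higher in M3 and 10 lower of 372 tested. Chromosomes 3 and 8 both had medians of 0.23, with 90 called higher and 31 lower of 726 on chromosome 3 and 75 higher and 23 lower of 783 on chromosome 8, and chromosome 13 had 0.15. Chromosome 5 had the lowest median, -0.18, with 22 called higher and 81 lower of 918, and chromosomes 7 and 2 followed at -0.12 and -0.11. Every chromosome median between the 2 arrays of a line lay between -0.0111 and 0.0131, far inside these values.

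The direction of the shift was mostly the same along these chromosomes, while its size was uneven. In consecutive windows of 50 tested genes, the median was above 0 in 8 of 8 windows of chromosome 18, 15 of 15 of chromosome 3, 16 of 16 of chromosome 8 and 11 of 11 of chromosome 13, and below 0 in 17 of 18 of chromosome 5, 22 of 23 of chromosome 7 and 22 of 24 of chromosome 2. The window medians ran from 0.08 to 0.524 on chromosome 18, from 0.000565 to 0.455 on chromosome 3 and from 0.0292 to 0.388 on chromosome 8. They ran from -0.412 to 0.0858 on chromosome 5. Among genes with a signal over 100, the medians were 0.55 for chromosome 18, 0.39 for chromosome 8, 0.38 for chromosome 3, 0.33 for chromosome 13 and -0.30 for chromosome 5. Against the mean of the 4 mesenchymal lines, M3 had a chromosome 18 median of 0.17 and M4 one of -0.16, with -0.13 for M1 and 0.12 for M2; for chromosome 8 the median was -0.20 in M4 and 0.06 to 0.07 in the other lines. With values under 64 set to 64, which gives many low genes a change of 0, the medians of all genes shrank to 0.23 for chromosome 18, 0.08 for chromosome 3, 0.05 for chromosome 8 and -0.01 for chromosome 5 and were 0 for chromosomes 13, 7 and 2. The number of chromosome copies was not measured here.

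**Figure D5:**
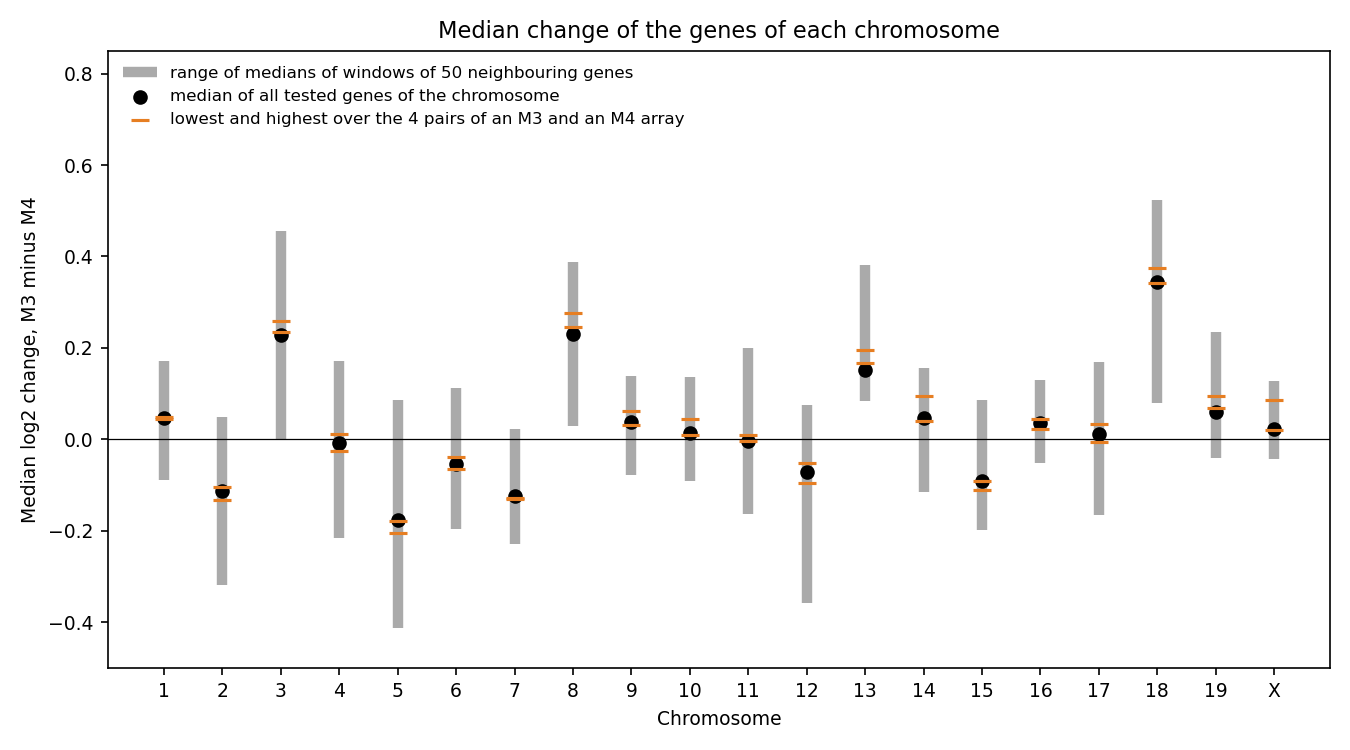
Black points give the median log2 change, M3 minus M4, over all tested genes of a chromosome, and short orange lines the lowest and highest median over the 4 pairs of an M3 and an M4 array; grey bars span the medians of windows of 50 neighbouring genes. Chromosome 18 is highest at 0.34, chromosomes 3 and 8 follow at 0.23, and chromosome 5 is lowest at -0.18, with little spread between pairs of arrays.

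Called genes lay side by side in 9 runs of 3 or more neighbouring tested genes with the same direction. Whether that is more than the share of genes called would give was not tested. The longest had 4 genes, all lower in M3: Dsn1, Soga1, Samhd1 and Rbl1 on chromosome 2, Hnrnpd, 4930524J08Rik, Hnrnpdl and Enoph1 on chromosome 5, and Il16, Tlnrd1, Cemip and Abhd17c on chromosome 7. Of the runs of 3, Atf3, Nenf and Pacc1 on chromosome 1, Slc7a2, Pdgfrl and Mtus1 on chromosome 8, and Ero1b, Gpr137b-ps and Gpr137b on chromosome 13 were higher in M3. Gpr137b and its pseudogene are near-identical copies, so their signals may not be separate. Several of these genes had further probe sets without a call, among them Hnrnpdl, Samhd1 and Mtus1. With the mean of a gene's probe sets, the calls of Soga1, Samhd1, Rbl1, Hnrnpd, Hnrnpdl, Il16 and Mtus1 were lost. The runs on chromosomes 2, 5, 7 and 8 thus depend on the choice of probe set.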

How the data were processed

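The files give 10 arrays of 5 cell lines, 2 per line, in 1 table of 45101 probe sets. The values are linear array intensities as deposited by the authors, who used GCOS 1.3, per the submitters' processing notes; how signals were computed, scaled and corrected for background was a step not given in the sources used here, and no detection calls were used. The members compared and the gene lists were chosen with earlier results of these data known.

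Values were quantile normalized over the 10 arrays and put on a log2(value + 32) scale. Probe sets above the 40th percentile of their array on at least 2 arrays were kept (32978), probe sets with 1 gene symbol were used (27422), and the probe set with the highest mean stood for a gene, which left 14840 of 18193 genes. Symbols came from the platform annotation and were matched to RefSeq genes on GRCm38.p6. Lines were compared in 1 fit over the 10 arrays (limma 3.58.1 in R 4.3.3, lmFit and eBayes with a trend, 5 residual degrees of freedom), tested on simulated data. Calls needed a Benjamini-Hochberg adjusted p under 0.05 and a 2-fold change.

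Named genes were a fixed set of markers, the 15 largest called changes in each direction with a signal of at least 100 and a gene name that is not a clone number, up to 5 called members with the largest change per list, and the genes of the 6 longest runs; other genes named were chosen after their values were seen. Alternatives changed the normalization, pseudocount, floor, filter, probe set rule, samples in the fit, variance prior and threshold, and left out each array of M3 and M4 in turn. The number of arrays limits the precision.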

Additional observations from a re-analysis of the deposited data

How the results depend on the processing

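Under 20 alternatives the number of genes called between M3 and M4 ran from 1213 (mean of a gene's probe sets) to 2017 (limma's treat test against 1.5-fold) beside 1567, and stayed between 1579 and 1634 when 1 array of either line was left out, where the lone array is assumed to vary like the other lines' arrays. The share called higher in M3 ran from 39.4% (arrays scaled to the hybridization controls) to 55.9% (values as deposited) of calls, beside 48.8%. Deviations of equally numbered arrays correlated at -0.006 between M3 and M4 and at -0.027 to 0.026 over all pairs of lines, so the numbers do not pair the samples; with the replicate number as a block, 1567 genes were called, 765 higher and 802 lower.

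Of 258 named genes, 218 were called, 169 of them under every alternative, and 49 were lost under at least 1. No call reversed its direction, while some genes without a call, such as Cd44 and Axin2, changed sign. Of the 40 named genes not called, 7 were called under at least 1 alternative. These were E2f1 under 6, Srebf2 under 5, H2-K1 under 4, and Vim, Fn1, Met and Irf9 under 1 each. The calls lost most often were those of Mtus1 and Ephb6 (9 alternatives each), Snai1, Lyz2 and Dusp5 (7 each), Wfdc18 and Egln3 (6 each), and Psmb9, Ldhb, Acvr2a and Oasl1 (5 each); Asns and Myc were lost under 4 each. Cell cycle genes called lower numbered 34 to 36, sterol genes 17 to 19, ATF4 genes called higher 12 to 15 and matrix genes called lower 14 to 17. The chromosome 18 median ran from 0.23 to 0.50 and that of chromosome 5 from -0.26 to -0.01. Signals near the bottom of the range limit the size of the changes of low genes.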

Other observations

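Several genes outside the lists, chosen after their values were seen, differed between M3 and M4 by as much as the list members. Among genes higher in M3, the stress gene Gadd45a read 2166 and 1991 on the M3 arrays and 168 and 210 on the M4 arrays, and Aldh1l2, the mitochondrial folate dehydrogenase, and Gpt2, the mitochondrial alanine aminotransferase, rose by 3.04 and 2.53. The secreted proteins Wfdc2 and Csn3, the latter a casein of milk, rose by 2.97 and 2.76, and Vnn3, a relative of Vnn1, by 3.20. Not all matrix genes outside the list were lower in M3: Col18a1, the source of endostatin, and the small proteoglycan Ogn rose by 2.50 and 2.41, and Ankrd1, a known target of YAP, by 2.49.

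Among genes lower in M3, the change was -4.12 for the glucocorticoid-activating enzyme Hsd11b1, -3.98 for the LIM protein Crip1, -3.04 for the perivascular and fibroblast marker Cd248, -2.97 for the water channel Aqp1, -2.79 for the vessel-stabilising ligand Angpt1 and -2.32 for Il1r1, the receptor of interleukin 1. Further genes of division were lower too: the change was -3.94 for the thymidine kinase Tk1, -2.88 for the DNA ligase Lig1, -2.65 for the maintenance methylation factor Uhrf1 and -2.57 for the ubiquitin ligase subunit Skp2. The cytokine signalling inhibitor Socs3 fell by 1.54, opposite to the rise of its relative Socs2.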
